A study of Homo sapiens and Mus musculus with 56 samples.

Results

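The response of REH cells to MI-2-2 was read from 6 arrays, 3 of cells given 10 µM MI-2-2 and 3 of cells given DMSO, chosen by their sample titles from the 56 arrays of a study of DOT1L and menin inhibition in leukaemia lines. REH is an established human B-precursor acute lymphoblastic leukaemia line that carries an ETV6-RUNX1 fusion and no KMT2A fusion, and it served beside lines with such a fusion, RS4;11 and SEM. Another 6 REH arrays, 3 of cells given 3 µM EPZ004777 (a DOT1L inhibitor) and 3 of cells given both compounds (the combination, taken to hold the doses used singly), share the cells, the medium and the 6 days of treatment. The titles call the arrays of a group biological replicates of 1 line, so that p-values measure the spread between such cultures, and 3 arrays a group limit the precision. Levels are log2 probe set signals, and a change is a difference of group means on the log2 scale with its standard error. Genes with an adjusted p (Benjamini-Hochberg, limma fit of the 12 REH arrays) under 0.05 are called, and † marks a gene read on a probe set of the s or x type, whose probes can match more than 1 transcript.

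Menin is a scaffold protein that tethers the histone methyltransferase KMT2A, and the fusions made from it, to chromatin. MI-2-2 occupies the pocket of menin in which KMT2A binds. In leukaemias with a KMT2A fusion the best known genes that depend on this contact are HOXA9 and MEIS1, while a line without the fusion keeps its normal KMT2A and KMT2B complexes as possible partners. REH cells expressed the targets of this chemistry: MEN1† lay between 8.34 and 9.15 and KMT2A between 10.78 and 11.33 on the 12 arrays. MEN1† (-0.31 ± 0.20, adjusted p = 0.429) and KMT2A (-0.01, adjusted p = 0.979) were not called with MI-2-2. The B-precursor identity was borne out by the markers: 9 of the 10 with a probe set, among them PAX5, EBF1, CD79A, DNTT and RAG1, lay above the 40th percentile of the array (4.84 to 4.88) on all 12 arrays. VPREB1 did so on DMSO replicate 1 alone (7.69, the others at most 4.24).

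The DMSO arrays differed among themselves more than those of any other REH group. The median SD over genes was 0.207 in DMSO against 0.0982 with MI-2-2, 0.113 with EPZ004777 and 0.0942 with the combination. DMSO replicate 1 lay over 1 log2 above each of the other 11 REH arrays on 91 probe sets of 79 genes, where the other REH arrays did so on 0 or 1. On 58 of the 91 the mean of the RS4;11 DMSO arrays was higher still by over 1 log2, and on 56 that of SEM. GTSF1 measured 8.04 on DMSO replicate 1, at most 4.27 on the other REH arrays and 12.69 in RS4;11, and 3.28 and 3.74 in SEM and MOLM-13. PRL, also high in RS4;11 (13.11) and not in SEM (5.17) or MOLM-13 (4.19), measured 8.97 on this array. MEIS1† was above the percentile on this array alone (6.06, the others at most 4.67) and so was not tested. VPREB1 is also among the 91. Whether this array holds RNA of another line was not tested, and each DMSO mean includes it unless the array is said to be left out. None of the 187 called genes was read on one of the 91 probe sets, where the wide DMSO spread makes a call unlikely. Smaller excesses on this array are not covered by that count. The median of DMSO replicate 1 minus replicate 2 was 0.24 over the genes called down and -0.25 over those called up. For replicate 3 minus replicate 2 it was 0.11 and -0.13.

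DMSO replicate 3 lay over 1 log2 below each of the other 11 on 98 probe sets, and it had the highest 3' minus 5' difference of the control transcripts, a measure of how far towards the 5' end the amplified RNA reaches. For actin this was 3.11, 2.75 and 3.65 on DMSO replicates 1, 2 and 3, and 2.49, 2.58 and 2.36 with MI-2-2, so that the groups did not overlap. For GAPDH it was 0.564, 0.448 and 1.08 against 0.414 to 0.571. With the actin value as a covariate 4 genes were called instead of 187, and 1909 had an unadjusted p under 0.05. TXNIP† and AGR2 were among the 4, beside MIR1915HG, also among the 187, and PRAME, which is not. With DMSO replicate 2 as the only DMSO array, whose spread was then taken from the other 3 groups, 29 genes were called.

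**Figure D1:**
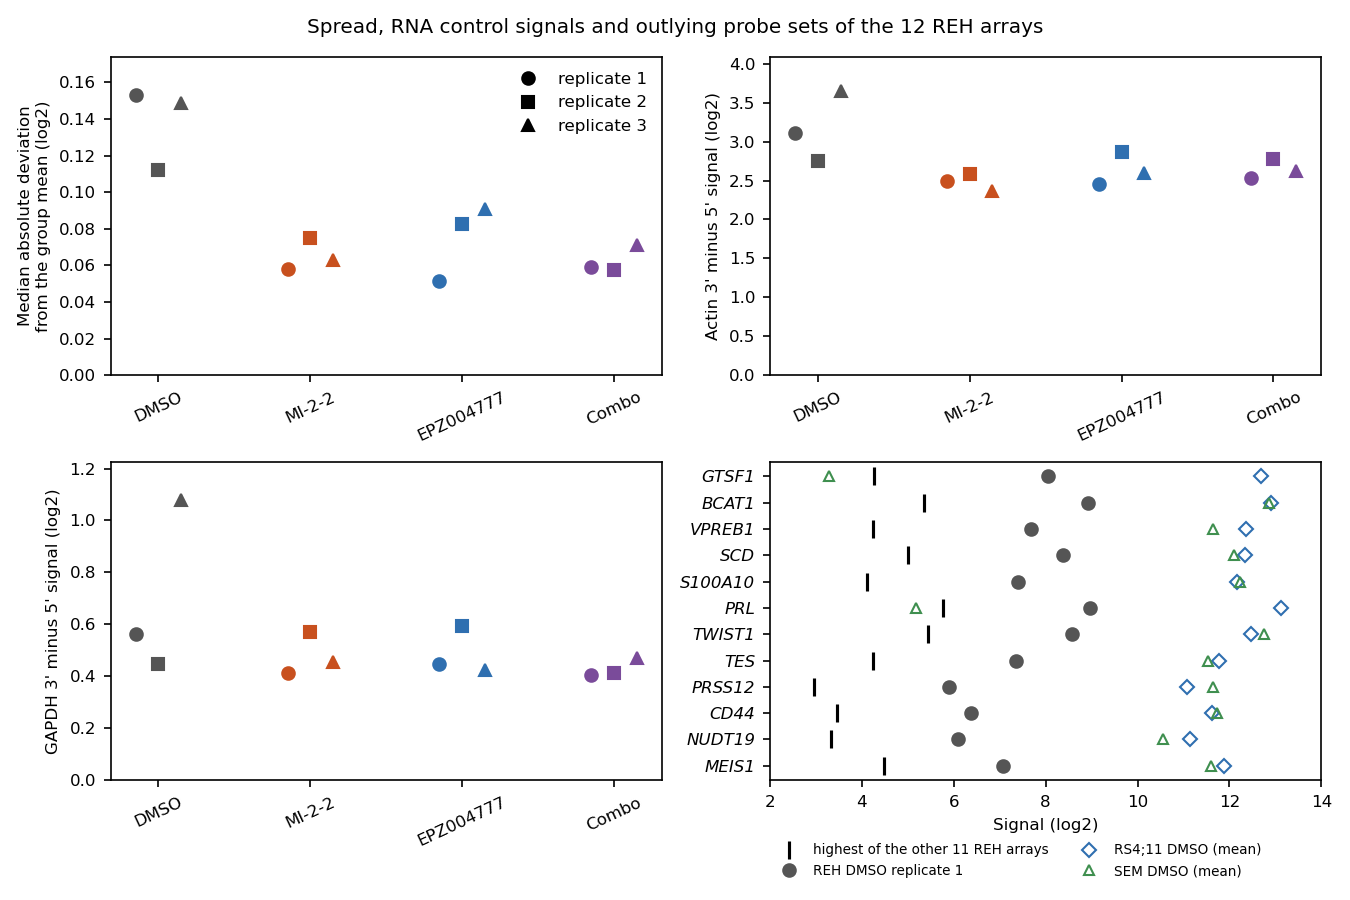
Quality of the 12 REH arrays by group and replicate. Shown are the median absolute deviation of the 13961 tested genes from the group mean and the actin and GAPDH 3' minus 5' signals (log2). The last panel shows, with XIST left out, the 12 genes with the largest excess on REH DMSO replicate 1 (log2 signal). DMSO replicates 1 and 3 deviate most, and on the 12 genes DMSO replicate 1 lies between the other REH arrays and the RS4;11 level.

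Of 13961 genes tested, 187 were called with MI-2-2 in REH (1.34%), 56 up (0.401%) and 131 down (0.938%). The fit of 12 arrays takes the spread from all 4 REH groups. A fit of the 6 MI-2-2 and DMSO arrays alone called 1 gene, ARRDC4, and left TXNIP† at an adjusted p of 0.0755, while a fit of all 44 human arrays called 2123. The split also moved: it was 84 up and 96 down with the GAPDH covariate, 185 and 230 without DMSO replicate 3, and 2 and 2 with the actin covariate. Changes were moderate: the median was 0.62 among the genes that rose and -0.67 among those that fell, and 3 rises and 12 falls were larger than 1 log2. In bulk RNA, less of a transcript in each cell and fewer cells that express it cannot be told apart. The median over all tested genes was -0.02 and the median standard error 0.12. On 2591 genes (18.6%) the 3 MI-2-2 arrays lay wholly on 1 side of the 3 DMSO arrays, and 2664 genes (19.1%) had an unadjusted p under 0.05, so the 187 are those that passed the adjustment. The count turned on single arrays: it was 19, 65 and 22 without MI-2-2 replicate 1, 2 and 3, and 122, 1314 and 415 without DMSO replicate 1, 2 and 3. On all 187 the 3 MI-2-2 arrays lay wholly on 1 side of the 3 DMSO arrays, so leaving out an array could not turn their direction. Of the 187, 13 stayed called whichever array was left out.

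The 13 were 9 genes that fell (TXNIP†, ARRDC4, ITGA10, CYB561, SLC35D2, ZSWIM5, HBEGF, MEI1 and ARL9) and 4 that rose (AGR2, AHNAK, TJP1 and SDC2). With DMSO replicate 2 as the only DMSO array, 9 of the 13 were called.

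TXNIP and ARRDC4, related proteins that hold back glucose uptake, were both among the 5 deepest falls. TXNIP†, the deepest, an alpha-arrestin that binds thioredoxin and draws glucose transporters from the cell surface, measured 11.81, 11.84 and 11.53 on the DMSO arrays and 10.26, 9.94 and 10.56 on the MI-2-2 arrays. The groups did not overlap, as in every called gene, and the change was -1.48 ± 0.14 (adjusted p = 0.00108), a 2.78-fold lower signal. Its paralog ARRDC4, an alpha-arrestin with a like effect on glucose transport, measured 6.94, 6.82 and 6.98 with DMSO and 5.75, 5.60 and 5.73 with MI-2-2. The change was -1.22 ± 0.11 (adjusted p = 0.00108), a 2.33-fold lower signal. Against DMSO replicate 2 alone the changes were -1.59 (adjusted p = 0.016) for TXNIP† and -1.12 (adjusted p = 0.0278) for ARRDC4. With the actin covariate TXNIP† was at -1.70 (adjusted p = 0.0158) and ARRDC4 at -1.02 (adjusted p = 0.0547). The other probe sets of TXNIP gave -0.83 and -1.39.

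The fall of TXNIP and ARRDC4 was also seen on arrays that the comparison with DMSO does not use. EPZ004777 left TXNIP† at 11.58, 11.66 and 11.62, and the combination at 10.61, 10.80 and 10.64. Between these groups the change was -0.94 ± 0.14 (adjusted p = 0.0298). ARRDC4 measured 6.64, 6.89 and 6.59 with EPZ004777 and 5.84, 6.12 and 5.83 with the combination, a change of -0.78 ± 0.11 (adjusted p = 0.0211). For both genes the 3 combination arrays lay below the 3 EPZ004777 arrays.

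TXNIP and ARRDC4 are textbook targets of the glucose-sensing factor MondoA and its partner MLX, which bind paired E-box-like sequences. The 250 bases upstream of the RefSeq start of each gene (GRCh38.p14) are shown because these members fell together, in the direction of transcription, with the match named below in capitals.
TXNIP, chr1:145996580-145996829, minus strand: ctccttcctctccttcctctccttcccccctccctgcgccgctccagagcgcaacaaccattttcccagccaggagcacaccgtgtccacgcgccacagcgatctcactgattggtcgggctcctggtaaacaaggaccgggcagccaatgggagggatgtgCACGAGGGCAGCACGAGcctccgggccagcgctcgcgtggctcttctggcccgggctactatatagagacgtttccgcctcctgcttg
ARRDC4, chr15:97960453-97960702, plus strand: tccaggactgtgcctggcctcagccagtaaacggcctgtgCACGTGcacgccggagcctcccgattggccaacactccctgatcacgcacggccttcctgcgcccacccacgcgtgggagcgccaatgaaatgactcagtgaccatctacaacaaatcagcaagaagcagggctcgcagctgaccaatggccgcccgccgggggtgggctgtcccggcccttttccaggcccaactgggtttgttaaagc
The capitals in TXNIP match tandem E-box-like sites (CACGNG, any 5 bases, CACGNG), a pattern written after that window had been read, 88 to 72 bases before the start. It occurs in 16 of 27305 promoter windows of that length (0.0586%), on either strand. The capitals in ARRDC4 mark the E-box CACGTG 210 to 205 bases before the start, a sequence found in 6.49% of the windows. Among genes with a window, 11.2% of those called down (12 of 107), 6.67% of those called up (3 of 45) and 8.58% of those tested hold a CACGTG. The carbohydrate response element consensus (CANGNG, any 5 bases, CNCNTG; 0.458% of windows), TCACNCCAC (0.875%), TGATGNAA (3.19%) and TGACNNNGC (11%) matched neither window on either strand. These are matches of letters only.

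Of 16 tested members of the list of alpha-arrestins and forkhead (FOXO) targets 3 fell (18.8%, beside 0.938% of all genes called down) and 0 rose. The median was 0.01, beside -0.02 over all genes. The members that fell were TXNIP†, ARRDC4 and SESN1† (-0.67 ± 0.13, adjusted p = 0.0308), a stress-induced regulator of mTORC1 that is also a p53 target. SESN1† was at -0.32 (adjusted p = 0.363) with the actin covariate. ARRDC3 was at 0.45 (adjusted p = 0.13), ARRDC2 at -0.06 and FOXO1† at 0.05. HK2, the hexokinase that commits glucose to the cell's metabolism, rose from 10.73, 10.98 and 10.89 to 11.40, 11.32 and 11.30, a change of 0.48 ± 0.09 (adjusted p = 0.0248). It was the only called member of 29 hypoxia and glycolysis genes (median 0.04). TPI1† was at 0.43 (adjusted p = 0.054), ALDOC at 0.44 (adjusted p = 0.16), SLC2A1† at -0.06 and PGK1† at -0.08.

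ITGA10, CYB561, SLC35D2 and HBEGF were also among the 13. ITGA10, an integrin chain that binds collagen, measured 6.38, 5.77 and 5.88 with DMSO and 4.66, 4.76 and 4.78 with MI-2-2 (-1.27 ± 0.16, adjusted p = 0.00443). The MI-2-2 arrays of ITGA10 lay near the percentile that separates dim probe sets. CYB561, a membrane cytochrome that passes electrons from ascorbate, measured 7.07, 6.65 and 6.98 against 5.59, 5.89 and 5.44 (-1.26 ± 0.13, adjusted p = 0.0018). The other 4 probe sets of CYB561, all dimmer, gave between -0.32 and 0.03. SLC35D2, a Golgi transporter of nucleotide sugars, measured 7.07, 6.87 and 7.11 against 5.80, 6.14 and 6.04 (-1.02 ± 0.13, adjusted p = 0.00443). In all 3 genes the gap between the groups was wider than the range within either of them. HBEGF, a growth factor of the EGF family, measured 8.90, 9.06 and 9.16 with DMSO and 8.07, 8.24 and 8.02 with MI-2-2. It fell by 0.93 ± 0.11 on the log2 scale (adjusted p = 0.00329).

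Other falls of about 1 log2 were not called against DMSO replicate 2 alone. SULF2, a sulfatase of heparan sulfate, measured 7.08, 6.72 and 7.37 against 5.99, 6.02 and 5.94 (-1.07 ± 0.18), and stood at -0.63 (adjusted p = 0.302) with the actin covariate. CIART, a repressor in the circadian clock, measured 7.42, 6.20 and 6.85 against 5.33, 5.92 and 5.41 (-1.27 ± 0.27, adjusted p = 0.0427), so that DMSO replicate 2 lay close to the MI-2-2 arrays. Against that array alone CIART was at -0.65 (adjusted p = 0.444). CEL†, a lipase, was at -1.17 ± 0.20 against all DMSO arrays and -0.70 (adjusted p = 0.279) against DMSO replicate 2. ANO2†, a calcium-gated chloride channel, went from -1.11 to -0.58, and a second ANO2 probe set gave -0.21. BHLHA15, a transcription factor of secretory cells, was at -1.04 ± 0.20 and, with the size kept, at -1.05 (adjusted p = 0.186) against replicate 2. PIWIL4 (-1.01 ± 0.18) acts with small RNAs of the germ line, and MUC19 (-1.0 ± 0.21) is a mucin. MUC19 was dim with MI-2-2 (4.26, 4.66 and 4.29) and stood at -0.57 (adjusted p = 0.467) against DMSO replicate 2. The remaining named falls, PDE4DIPP6, TINCR† and DNHD1, lay between -0.98 and -0.96, and PDE4DIPP6 was at -0.55 against DMSO replicate 2. Other probe sets gave -0.33 for PDE4DIPP6, 0.09 and -0.09 for TINCR, and between -0.72 and -0.20 for DNHD1.

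**Figure D2:**
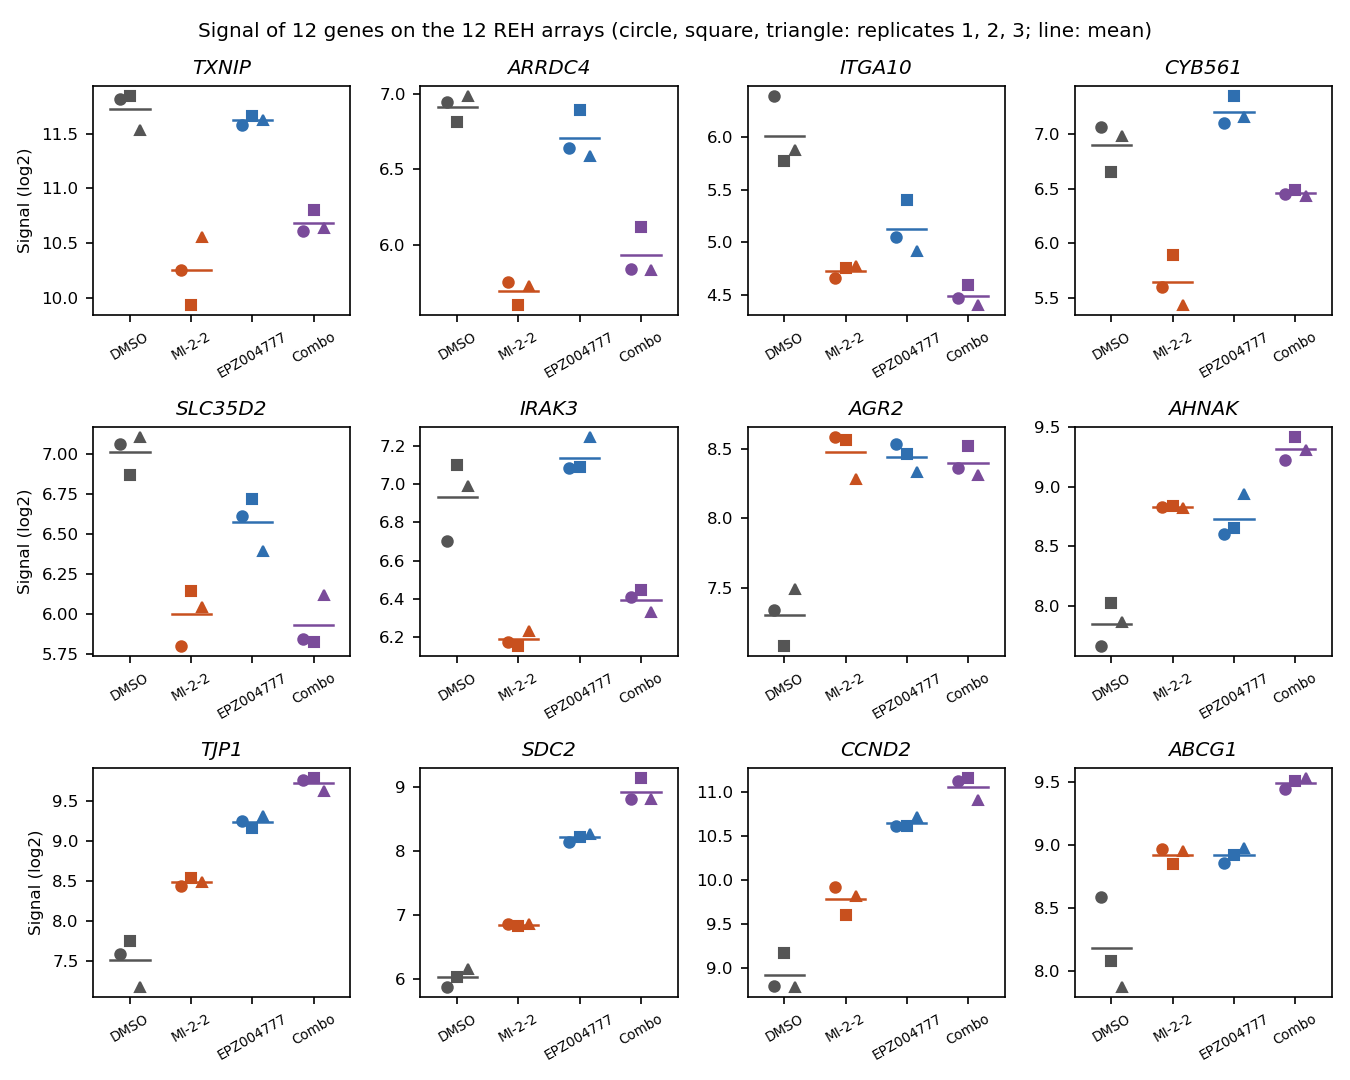
Log2 signal of 12 genes on the 12 REH arrays, by group, with the group mean as a line and symbols for replicates 1 to 3; each panel has its own axis, which does not start at 0. TXNIP, ARRDC4 and IRAK3 were lower with MI-2-2 and with the combination than with DMSO or EPZ004777. AGR2, AHNAK, TJP1 and SDC2 were higher with each treatment than with DMSO.

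The rises were smaller and included adhesion and scaffold proteins. AGR2, a disulfide isomerase of the endoplasmic reticulum, measured 7.34, 7.09 and 7.49 with DMSO and 8.58, 8.56 and 8.28 with MI-2-2 (1.17 ± 0.12, adjusted p = 0.0018). AHNAK, a very large scaffold protein below the plasma membrane, measured 7.67, 8.03 and 7.87 against 8.83, 8.84 and 8.82 (0.98 ± 0.11, adjusted p = 0.00329). TJP1, the tight junction scaffold ZO-1, measured 7.59, 7.76 and 7.18 against 8.44, 8.54 and 8.49 (0.98 ± 0.13, adjusted p = 0.00525). SDC2, a heparan sulfate proteoglycan, measured 5.89, 6.04 and 6.17 against 6.87, 6.83 and 6.87 (0.82 ± 0.11, adjusted p = 0.00525). In each of these 4 genes the MI-2-2 arrays stood clear of the DMSO arrays, as they did in all 187 called genes. Other probe sets, all dimmer, gave 0.71 and 0.14 for SDC2 and between -0.11 and 0.40 for AHNAK. They gave 0.87 for AGR2 and 0.33 for TJP1. With the actin covariate AGR2 (1.45, adjusted p = 0.00918) kept its call, and AHNAK (0.93, adjusted p = 0.0967), TJP1 (0.63, adjusted p = 0.165) and SDC2 (0.97, adjusted p = 0.0547) did not.

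CCND2†, the D-type cyclin that pairs with CDK4 and CDK6, rose from 8.80, 9.17 and 8.79 to 9.93, 9.61 and 9.82 (0.87 ± 0.12, adjusted p = 0.0102). Against DMSO replicate 2 alone it was at 0.61 (adjusted p = 0.144). BHLHE40†, a repressor in the circadian clock, rose by 0.80 ± 0.12, FRK, a kinase related to Src, by 0.80 ± 0.14, and RASD2, a small Ras-like GTPase, by 0.80 ± 0.15. HMGN5† (0.84 ± 0.17) binds nucleosomes, AMBP† (0.81 ± 0.17) encodes the precursor of bikunin, and CNTLN (0.79 ± 0.15) is a centrosome protein. PPP4R4 (0.90 ± 0.17), a phosphatase subunit, and NCKAP5 (0.85 ± 0.15) were also among the 15 largest rises. Against DMSO replicate 2 PPP4R4 was at 0.51 (adjusted p = 0.256), HMGN5† at 0.53 (adjusted p = 0.233) and CNTLN at 0.49 (adjusted p = 0.162), and PPP4R4 was at 0.38 (adjusted p = 0.349) with the actin covariate. MGC12916† was at 1.02 ± 0.19, and its other probe sets at 0.61 and 0.06. The other probe sets of CNTLN gave 0.69, 0.18 and -0.16, and those of CCND2 between 0.37 and 0.86.

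TRAT1†, an adaptor of the T cell receptor, rose from 5.76, 6.61 and 6.44 to 7.43, 7.42 and 7.35 (1.13 ± 0.19, adjusted p = 0.0183). Of 14 markers of T and natural killer cells 6 were tested, and TRAT1† was the only one called. Of the 14, 7, among them CD3E, CD3G, CD2, CD5 and CD8A, lay below the 40th percentile on all 12 arrays. The mean of the 14 was 4.90 to 5.02 on the DMSO arrays and 4.98 to 5.04 on the MI-2-2 arrays. Of the markers of myeloid cells (8 tested of 16 with a probe set), erythroid cells and platelets (5 of 10), plasma cells (6 of 9) and stromal cells (4 of 11) 0 were called. Over all genes 1.34% were called, so 0 was likely in lists this small. Some of these markers are signals of the line itself: MPO, ITGAM†, PDGFRB and COL1A1† lay above the percentile on all 12 arrays.

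AGR2 and TRAT1† were also high with EPZ004777. AGR2 measured 8.53, 8.46 and 8.33 with EPZ004777 and 8.36, 8.52 and 8.31 with the combination, so that the combination minus EPZ004777 gave -0.05 ± 0.12 (adjusted p = 0.986). TRAT1† measured 8.41, 8.41 and 8.80 and then 8.43, 8.17 and 8.45 (-0.19 ± 0.19, adjusted p = 0.933). For NCKAP5 the difference was -0.09 ± 0.15 (adjusted p = 0.963). These 3 were the called genes named here whose direction turned on the other arrays. SDC2 and TJP1 differed from them: SDC2 rose further from 8.14, 8.22 and 8.27 with EPZ004777 to 8.81, 9.13 and 8.81 with the combination (0.70 ± 0.11, adjusted p = 0.0298), and TJP1 stood at 0.48 ± 0.13 (adjusted p = 0.242). EPZ004777 and DMSO arrays are compared here by their values only, because each treatment shares the DMSO arrays.

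The combination minus EPZ004777 gives the MI-2-2 effect in the presence of the DOT1L inhibitor, on 6 arrays that the DMSO comparison does not use, although both contrasts share the spread of the 12-array fit. It called 24 genes (0.172%), 12 up and 12 down (0.086% each), and 1023 genes (7.33%) had an unadjusted p under 0.05. Of the 187 genes, 175 (93.6%) had the same direction there, 51 of the 56 that rose and 124 of the 131 that fell, where 66.2% of all genes tested had the same sign in both. The median was 0.23 for the genes that rose and -0.24 for those that fell. Of the 187, 86 had the same direction and an unadjusted p under 0.05, beside 5.98% of all genes.

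Called in both contrasts were 10 genes, 5.35% of the 187 and 41.7% of the 24, and all 10 had the same direction. The names of those that the naming rule does not give (DNAH12, SCN3A, IRAK3, KASH5, TENT5C and PAX7) were chosen after their values had been seen. TXNIP†, ARRDC4, IRAK3, SCN3A† and DNAH12 fell. IRAK3, an inhibitor of Toll-like receptor signalling, measured 6.70, 7.10 and 6.99 with DMSO, 6.18, 6.16 and 6.23 with MI-2-2, 7.08, 7.09 and 7.24 with EPZ004777 and 6.41, 6.45 and 6.33 with the combination. Its changes were alike in both contrasts, -0.74 ± 0.10 (adjusted p = 0.0091) and -0.74 ± 0.10 (adjusted p = 0.0211). The other probe sets of IRAK3, both dimmer, gave -0.08 and -0.18 for MI-2-2 minus DMSO. SCN3A†, a sodium channel, was at -0.64 ± 0.12 and -0.76 ± 0.12, and DNAH12, a dynein heavy chain, at -0.73 ± 0.14 and -0.80 ± 0.14. Dimmer probe sets gave -0.14 for SCN3A and -0.12 for DNAH12 for MI-2-2 minus DMSO. Against DMSO replicate 2 alone DNAH12 was at -0.41 (adjusted p = 0.342).

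SDC2, RASD2, PAX7, TENT5C and KASH5† rose in both contrasts. RASD2 measured 5.0, 5.51 and 5.64 with DMSO, 6.22, 6.04 and 6.28 with MI-2-2, 5.72, 5.60 and 5.62 with EPZ004777 and 6.96, 6.71 and 6.73 with the combination. The larger rise was in the second contrast (1.15 ± 0.15, adjusted p = 0.0163). TENT5C, a poly(A) polymerase of B-lineage cells, was at 0.54 ± 0.10 and 0.62 ± 0.10 (0.35, adjusted p = 0.179, against DMSO replicate 2), and KASH5†, a protein that moves chromosomes in meiosis, at 0.53 ± 0.08 and 0.61 ± 0.08. PAX7, a transcription factor of muscle precursors, was dim in DMSO (4.10 to 4.19) and measured 4.78, 5.12 and 4.57 with MI-2-2. Dimmer probe sets gave 0.22 for TENT5C and 0.19 for PAX7 for MI-2-2 minus DMSO.

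**Figure D3:**
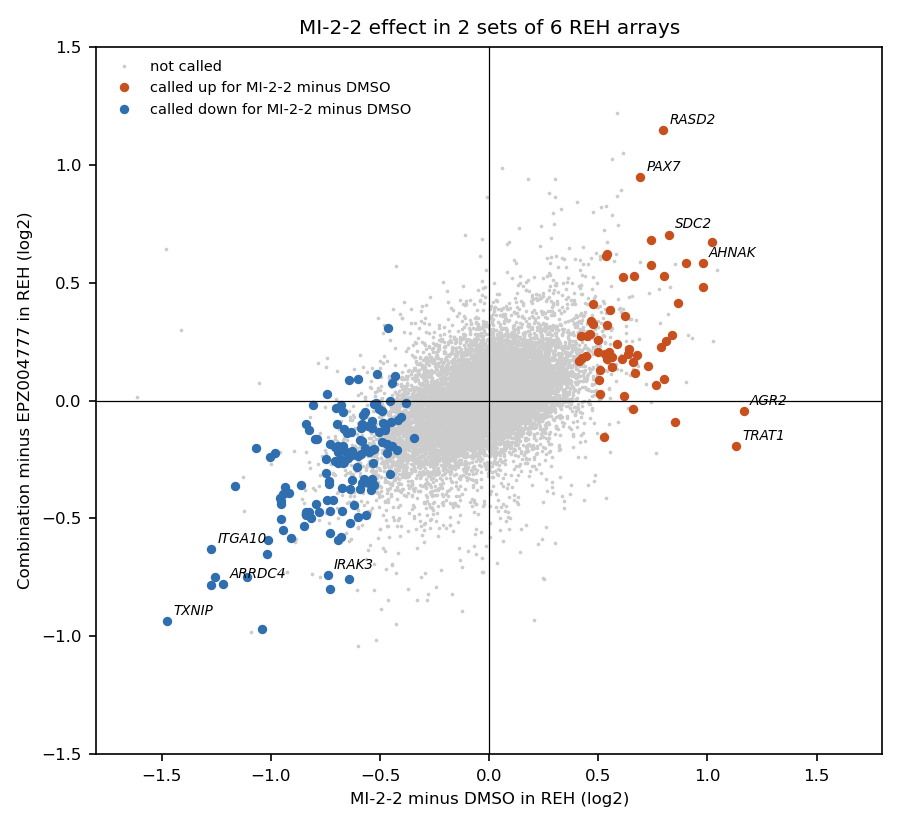
Log2 change of each of the 13961 genes for MI-2-2 minus DMSO (x axis) and for the combination minus EPZ004777 (y axis) in REH, with the 56 genes called up and the 131 called down for MI-2-2 minus DMSO in colour. TXNIP and ARRDC4 lie low on both axes, RASD2, PAX7 and SDC2 high on both, and AGR2 and TRAT1 near or below 0 on the y axis.

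Across 38 gene lists, 15 of 617 tested members were called (2.43%, beside 1.34% of all genes), 8 up and 7 down, and 27 lists had no called member. The list medians ran from -0.23 to 0.29. The p53 targets had the lowest median (-0.23), with 4 of 19 members down (21.1%, beside 0.938% of all genes) and 0 up. FAS†, a death receptor, measured 8.65, 8.05 and 8.15 with DMSO and 7.60, 7.68 and 7.68 with MI-2-2 (-0.63 ± 0.13, adjusted p = 0.0375). CDKN1A†, the cell cycle inhibitor p21, measured 10.86, 11.06 and 11.22 against 10.60, 10.45 and 10.57 (-0.51 ± 0.10, adjusted p = 0.0365). TP53I3†, a quinone oxidoreductase, fell by 0.65 ± 0.12 (adjusted p = 0.0248), and SESN1† is given above. BAX† (-0.06) and CCNG1† (0.13) were not called. MDM2† was not called on its brightest probe set (0.03), while 2 of its other probe sets gave -0.75 ± 0.15 and -0.68 ± 0.21. FAS† was at -0.40 (adjusted p = 0.162) against DMSO replicate 2. The 4 genes were also low with EPZ004777 (CDKN1A† 10.44, 10.45 and 10.45), and the combination minus EPZ004777 gave between -0.20 and -0.04 for them, none of which was called. Against DMSO replicate 2 alone the list median was -0.24.

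The metallothioneins, small proteins that bind zinc and copper, had the highest median (0.29), with 1 of 8 members called (12.5%, beside 1.34% of all genes). In each list of this paragraph 1 member was called, too few to describe a list. MT1X† rose from 9.07, 9.46 and 9.14 to 9.86, 9.71 and 9.76 (0.55 ± 0.11, adjusted p = 0.0318), and stood at 0.32 (adjusted p = 0.333) against DMSO replicate 2. MT2A† (0.48, adjusted p = 0.12), MT1E† (0.47, adjusted p = 0.065) and MT1H† (0.34, adjusted p = 0.10) were not called, and members of this family can share a probe set. Of the 19 NRF2 and oxidative stress genes (median 0.12), GSR, glutathione reductase, rose by 0.54 ± 0.11 (adjusted p = 0.0375). Of the 10 liver X receptor targets (median 0.18), ABCG1†, a cholesterol exporter, rose from 8.59, 8.08 and 7.88 to 8.97, 8.85 and 8.95 (0.74 ± 0.14, adjusted p = 0.0311). The other probe sets of ABCG1, all dimmer, gave 0.52, 0.37 and 0.11. ABCA1† stood at 0.21 (adjusted p = 0.585). Of the 24 ATF4 targets (median 0.04), CTH, an enzyme of cysteine synthesis, rose by 0.47 ± 0.09 (adjusted p = 0.0273), and ATF4 itself stood at 0.07.

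**Figure D4:**
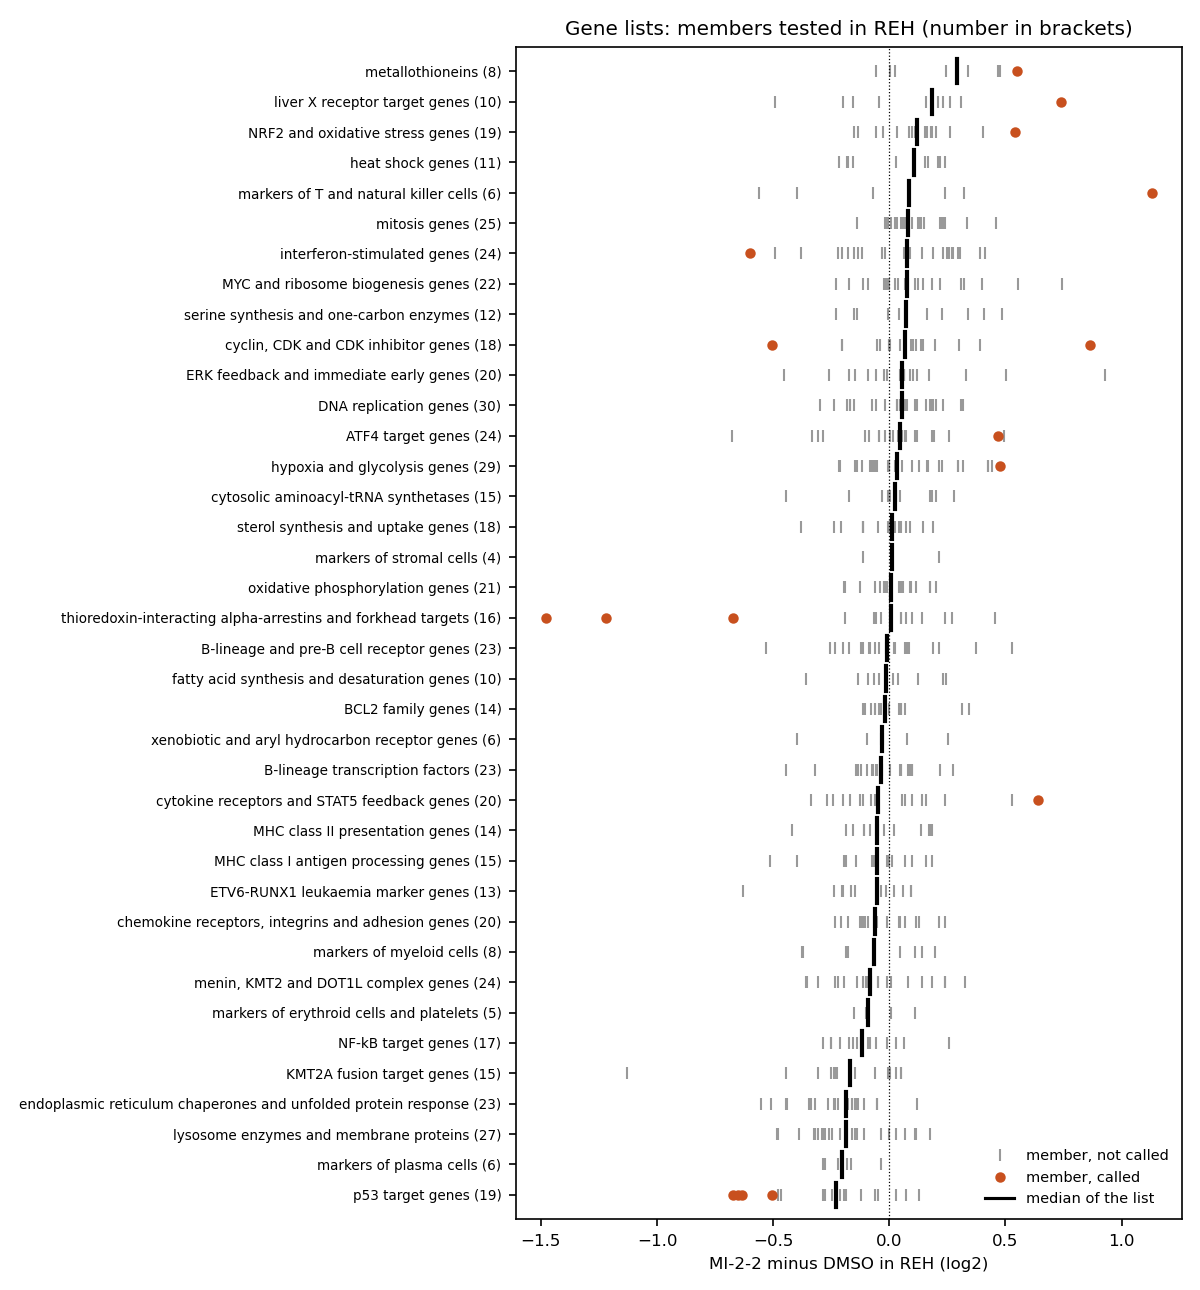
Log2 change for MI-2-2 minus DMSO in REH of each tested member of 38 gene lists (number of tested members in brackets), with called members as filled points and the median as a bar. The medians run from -0.23 (p53 targets) to 0.29 (metallothioneins).

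Of 15 tested KMT2A fusion targets 0 were called (median -0.17), beside 1.34% of all genes. At that share a list of this size often holds 0 calls. The counts of 0 given here therefore do not set these lists apart from other genes. MYB (0.05), CDK6 (0.00), MEF2C† (0.03) and BCL2 (0.05) were near 0 on their brightest probe sets. Other probe sets gave 0.47, 0.33 and 0.09 for BCL2 and between 0.16 and 0.26 for CDK6. LAMP5 had the lowest value of the list (-1.13, adjusted p = 0.169). That value came from DMSO replicate 1, at 7.12 beside 4.99 and 5.45 on the other DMSO arrays. Against DMSO replicate 2 the median of this list was -0.01. Of 24 genes of the menin, KMT2 and DOT1L complexes 0 were called (median -0.08), with KMT2B (-0.36) lowest and RBBP5 (0.33) highest. HOXA9 and RUNX1 are not analysed here because no probe set carries their symbol alone. Of 13 markers of ETV6-RUNX1 leukaemia 0 were called (median -0.06), EPOR among them (-0.20, adjusted p = 0.371). ETV6 was dim, above the percentile on 7 of 12 arrays, and stood at -0.13.

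Of 23 B-lineage and pre-B cell receptor genes (median -0.01) and 23 B-lineage transcription factors (median -0.04) 0 were called. With 1.34% of all genes called, lists of this size often hold 0 calls. RAG1 (0.02), DNTT (0.07) and IGLL1 (-0.09) were near 0 on their brightest probe sets, and a dimmer RAG1 probe set gave 0.49 ± 0.13. Farthest out stood CD37 (0.53, adjusted p = 0.094) and MS4A1 (-0.53, adjusted p = 0.21). The group means of MS4A1, 4.70 and 4.17, lay below the percentile. Of 20 cytokine receptors and STAT5 feedback genes, CRLF2†, a receptor chain for thymic stromal lymphopoietin, rose from 4.29, 4.34 and 4.13 to 4.58, 5.17 and 4.93 (0.64 ± 0.13, adjusted p = 0.0332), a level near that of dim probe sets. Of 24 interferon-stimulated genes ISG20, an exonuclease of single-stranded RNA, fell by 0.60 ± 0.10 (adjusted p = 0.0183). Of 18 cyclin and CDK genes CCND2† rose and CDKN1A† fell, and CDKN1B stood at 0.05.

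Of 25 mitosis genes (median 0.08), 30 DNA replication genes (0.05), 22 MYC and ribosome genes (0.08), 21 oxidative phosphorylation genes (0.01) and 18 sterol genes (0.01) 0 were called. The share over all genes was 1.34%, at which a list of this size often holds 0 calls. The 23 chaperones and unfolded protein response genes of the endoplasmic reticulum had a median of -0.19 and 0 calls. HERPUD1† was at -0.44 (adjusted p = 0.051), SDF2L1† at -0.55 (adjusted p = 0.086) and HSPA5 at -0.51 (adjusted p = 0.12). The 27 lysosome genes (median -0.19, and -0.01 against DMSO replicate 2) also had 0 calls.

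The same dose and duration of MI-2-2 in RS4;11 and SEM, lines with a KMT2A-AFF1 fusion, gives a test of the difference between lines. RS4;11 had 3 MI-2-2 arrays and 2 DMSO arrays, and SEM had 2 of each. In a joint limma fit of the 32 arrays of the 3 lines and 14943 genes, 1236 genes (8.27%) were called in RS4;11, 2191 (14.7%) in SEM and 1538 (10.3%) in REH. The spread in this fit is estimated over the arrays of all 3 lines, and its REH count is not that of the REH fit. Called changes over 1 log2 numbered 179 in RS4;11 and 372 in SEM. The REH numbers over 1 log2 given above come from the other fit and are not comparable. In this fit the median absolute change over all genes was 0.124 in RS4;11, 0.157 in SEM and 0.137 in REH. The difference between the REH effect and the mean effect in RS4;11 and SEM was called for 2036 genes (13.6%), with the REH effect higher in 854 (5.72%) and lower in 1182 (7.91%).

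Of 186 genes called in REH and tested in this fit, 42 (22.6%, and 3.4% of the RS4;11 list) were called in RS4;11, 29 in the same and 13 in the opposite direction. In SEM 53 (28.5%, and 2.42% of the SEM list) were called, 37 in the same and 16 in the opposite direction. TXNIP† fell by 1.40 on the log2 scale in RS4;11 (adjusted p = 6.3e-07) and stood at -0.06 in SEM (adjusted p = 0.88). Its difference from the mean of these lines was -0.75 ± 0.18 (adjusted p = 0.0063). ARRDC4 stood at -0.93 in RS4;11 (adjusted p = 0.0028) and -0.42 in SEM, and its difference (-0.54 ± 0.23, adjusted p = 0.12) was not called.

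Several REH changes were not seen in the fusion lines. AGR2 was at -0.09 in RS4;11 and -0.23 in SEM (difference 1.32 ± 0.18, adjusted p = 1.8e-05). ITGA10 was at -0.02 and 0.05 (difference -1.29 ± 0.22, adjusted p = 0.00029). SLC35D2 was at -0.15 and 0.05 (difference -0.97 ± 0.16, adjusted p = 0.00017), and SULF2 at -0.02 and 0.98 (difference -1.55 ± 0.21, adjusted p = 1.6e-05). CTH moved in the opposite direction in both fusion lines, -0.38 (adjusted p = 0.024) and -0.94 (adjusted p = 1.8e-06), with a difference of 1.13 ± 0.12 (adjusted p = 8.9e-07).

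For other genes the fusion lines gave the larger change. SDC2 rose by 3.13 in SEM and stood at 0.00 in RS4;11 (difference -0.75 ± 0.15, adjusted p = 0.0018). ABCG1† rose by 3.48 in RS4;11 and stood at 0.21 in SEM (difference -1.10 ± 0.21, adjusted p = 0.00096). ABCA1†, the other main cholesterol exporter, rose by 2.73 in RS4;11 and 2.84 in SEM, and its difference was -2.57 ± 0.20 (adjusted p = 4.7e-09). BHLHE40† rose by 1.95 in SEM, stood at 0.04 in RS4;11, and its difference (-0.19 ± 0.20, adjusted p = 0.58) was not called. The REH arrays behind these differences include DMSO replicates 1 and 3. Without REH DMSO replicate 2 the differences called numbered 3177, and without replicate 1 or 3 they numbered 1805 and 2500.

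**Figure D5:**
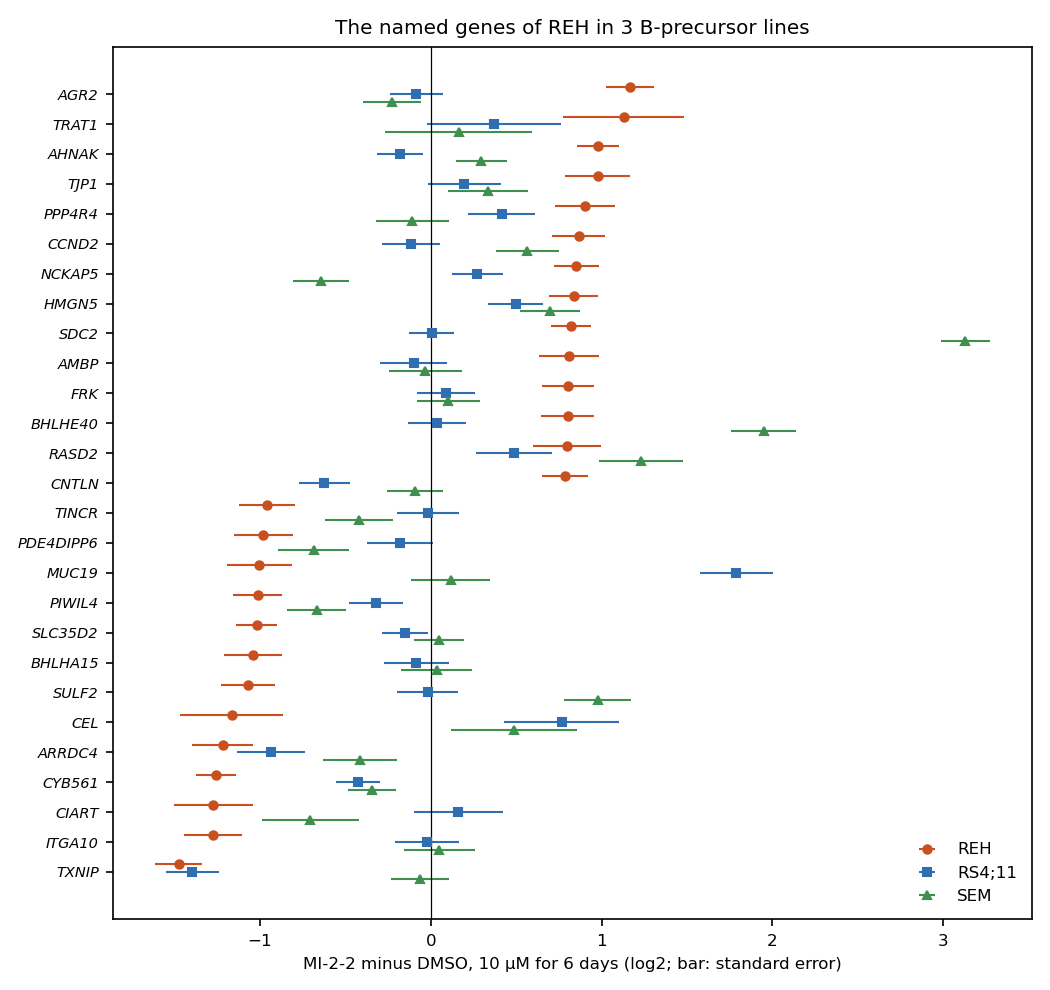
Log2 change for MI-2-2 minus DMSO with its standard error in REH, RS4;11 and SEM (joint fit of 32 arrays) for the genes with the largest rises and falls in REH that are read on the same probe set in both fits. TXNIP was low in REH and RS4;11 and near 0 in SEM, and SDC2 was highest in SEM.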

How the data were processed

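The deposited human values are log2 signals per probe set of a 3' expression array, made by the authors with RMA in affy under R 3.0.2, per the submitters' processing notes, from RNA amplified with the Nugen Ovation system, per the labels' protocols. Of 54675 probe sets, 41091 had 1 gene symbol, 1801 several, 11721 none and 62 were controls, and those with 1 symbol were used, 41037 of them updated by Entrez identifier. Each gene was read on its brightest probe set by mean, and tested if that was above the 40th percentile on at least 2 arrays. Tests were made in limma 3.58.1 under R 4.3.3 (lmFit, eBayes) on 12 REH arrays (4 groups) or 32 arrays of 3 lines, with adjusted p-values over all genes tested. The lists, the named genes (15 largest rises and falls among called genes with separated arrays, called list members, and preset genes) and the comparison were chosen with earlier results of these data known. On simulated data drawn from the REH means and spread (13961 genes), 47.8% of 67 changes of 0.5 log2, 91% of 67 of 1 log2 and 98.5% of 67 of 2 log2 were recovered. Of the 166 calls made there, 7 were false. Each gene had the same spread in all 4 groups there. In the data the DMSO arrays spread more (median SD 0.207 against 0.0942 to 0.113), and recovery under that spread was not tested. Replicate numbers were not used as pairs in the main fit, and whether same-numbered arrays came from a shared set of cultures was not tested. The deviations of same-numbered MI-2-2 and DMSO arrays correlated at -0.04, -0.44 and -0.25. Alternatives were the filter, normalization, probe set rule, arrays fitted, arrays left out, array weights, control transcript covariates, and, added after seeing the data, the combination minus EPZ004777. Promoter windows are RefSeq's (GRCh38.p14).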

Additional observations from a re-analysis of the deposited data

Results flagged for a closer look

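The named differences between REH and the fusion lines passed the test of the difference itself (limma, joint fit, adjusted p under 0.05), given here as the MI-2-2 effect in REH minus the mean effect in RS4;11 and SEM. The largest negative ones were in genes that rose in the fusion lines. JCHAIN, the joining chain of secreted antibodies, differed by -3.77 ± 0.16 (adjusted p = 3.07e-14). It rose by 4.07 in RS4;11 and 3.77 in SEM, and in REH it stood at 3.32 with DMSO and 3.47 with MI-2-2, below the 40th percentile on all 12 REH arrays. MPEG1, a pore-forming protein of macrophages, differed by -3.47 ± 0.26, with 0.00 in REH, 1.95 in RS4;11 and 4.99 in SEM. Its mean REH level (4.59 in both groups) was below the percentile too. MS4A1, the B cell antigen CD20, differed by -3.42 ± 0.25, with -0.53 in REH (adjusted p = 0.0846), 1.34 in RS4;11 and 4.44 in SEM, and its REH means (4.70 and 4.17) were also below the percentile. RNF175 differed by -2.87 ± 0.15, with -0.35 in REH, 1.60 in RS4;11 and 3.45 in SEM.

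PRL differed by -3.41 ± 0.91 (adjusted p = 0.0139), and its REH effect (-1.61) came from DMSO replicate 1 (8.97, beside 4.06 and 4.28). Without that array the difference was -1.81 (adjusted p = 0.0021).

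The largest positive differences were GFOD1 (1.89 ± 0.22), which stood at 0.82 in REH, -0.74 in RS4;11 and -1.40 in SEM, and ATF5† (1.79 ± 0.12), a stress-response transcription factor at 0.04 in REH, -0.74 in RS4;11 and -2.77 in SEM. TPH2 (1.74 ± 0.18), a serotonin synthesis enzyme, and LGR5 (1.66 ± 0.16), a receptor for R-spondins, fell by 3.42 and 3.28 in SEM and stood at -0.42 and -0.56 in RS4;11 and -0.19 and -0.26 in REH. TPH2 was below the percentile in REH (3.24 with DMSO and 3.05 with MI-2-2), where a fall could not be read. FUT1 (1.58 ± 0.21), a fucosyltransferase, stood at 0.55 in REH and fell by 1.01 in RS4;11 and 1.05 in SEM.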

How the results depend on the processing

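All 187 genes kept their direction under each alternative of the REH comparison in which they were tested except the combination minus EPZ004777 (175 of 187), and 0 were called under all 19. In fits that leave out arrays the kept direction was fixed in advance, because the MI-2-2 and DMSO arrays of all 187 were separated. The count of 187 was 165 without a filter, 167 with a stricter one, 161 after quantile normalization, 160 with array medians subtracted, 190 with the mean of probe sets and 180 with the GAPDH covariate. It was 1 on the 6 arrays alone (ARRDC4; 1624 genes had an unadjusted p under 0.05), 2123 in a fit of 44 arrays, 119 with array weights, 4 with the actin covariate, 29 with DMSO replicate 2 alone, 15 at an adjusted p under 0.01, 24 for the combination minus EPZ004777, and 19 to 1314 with 1 array left out. The replicate block, on numbers that the titles do not call pairs, gave 41 calls in REH. The 2036 differences between lines were 1087 on 15 arrays alone, 1288 with the replicate block within line, 953 at an adjusted p under 0.01, and 1410 to 3177 with 1 array left out. AGR2, TRAT1 and NCKAP5 reversed for the combination minus EPZ004777 (-0.046, -0.19 and -0.091); the cause was not tested. For the named genes 2122 results stayed as reported, 377 were weaker and 23 stronger. The 2122 include genes that were not called and stayed so, and they do not show how often a call held. On the 6 arrays alone, where ARRDC4 was the only gene called, 81 of the 127 named genes stayed as reported and 46 were weaker. The limits are 3 arrays a group in REH, 2 in some groups of RS4;11 and SEM, the spread of the REH DMSO group, and dim probe sets. On dim probe sets signal near background understates a change.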
